A study of Mus musculus with 10 samples.

Results

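Tbx3 encodes a T-box transcription factor, and the chromatin described here is the stretch of mouse chromosome 5 from 150 kb before to 150 kb after the gene. Every peak of ATAC-seq that fell in this window was taken from 10 deposited peak lists, and overlapping peaks were merged into regions. The window, chr5:119520534-119834724 (mm10), is 314191 bp long, and it held 29 of the 208851 regions that the lists gave together. These 29 regions came from 83 peaks.

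ATAC-seq uses a transposase that inserts adapters into accessible DNA, so a peak marks open chromatin. The study followed mouse embryonic fibroblasts (MEF) on the way to induced pluripotency, with 2 libraries at each of 5 stages. MEF, DAY3, DAY6 and DAY9 cells had the genotype OKSM Col1a1/M2rtTA ROSA26, in which doxycycline switches on Oct4, Klf4, Sox2 and Myc from a single cassette. MEF were kept without doxycycline, and the DAY3, DAY6 and DAY9 cells had 3, 6 and 9 days in ESC medium with 1 µg/ml doxycycline plus 50 µg/ml ascorbic acid. MEF and DAY3 cells were unsorted, and DAY6 and DAY9 cells were sorted for SSEA1, a surface marker of cells moving towards pluripotency. The reference was V6.5, a line of embryonic stem cells (ESC), unsorted, without the cassette, without doxycycline and grown on irradiated feeder cells. All groups have the strain C57BL/6 x 129 and the same batch name. V6.5 is 1 line, so its 2 libraries are not 2 independent lines, and the labels do not say whether the libraries of a stage came from separate cultures.

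In mouse embryonic stem cells Tbx3 belongs to the factors of the naive pluripotent state, and its expression responds to LIF and PI3K signalling. In the embryo it is needed in the limb, mammary gland and heart, and it represses the senescence gene Cdkn2a in fibroblasts. Its neighbour Tbx5, known for heart and forelimb, lies further along the chromosome. The gene thus has known roles in both mesenchymal and pluripotent cells, and the lists allow the elements seen in MEF to be separated from those seen in ESC and followed through the days between.

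The annotation (RefSeq, GRCm38, the assembly behind mm10) places Tbx3 at chr5:119670534-119684724. The table used gives no strand for Tbx3. Its start was taken as the lower end, 119670534, from general knowledge of the mouse gene, and every position before or after the start rests on that. Positions below are distances from this end to the middle of a region, minus meaning before the gene. Besides Tbx3 and the lower end of Tbx5 (chr5:119796514-119885220), the window held 8 genes of long noncoding RNAs. Tbx3os1 (chr5:119611253-119671508), on the minus strand, covers the Tbx3 start and runs away from it. Tbx3os2 (chr5:119685088-119691218), also on the minus strand, begins beyond the end of Tbx3. The others were Gm31314, AW549542, Gm16063, Gm16064, Gm42017 and Gm5563. Exons and introns were not analysed here, so a region is only said to lie in a gene or between genes.

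The RefSeq table lists 7 promoters in the window, each 250 bases before to 50 bases after a start. All belong to genes of long noncoding RNAs. None is that of Tbx3 or Tbx5, whose promoters were therefore not searched for motifs. Of the 7, 2 overlapped a region of open chromatin. Both belong to the antisense neighbours of Tbx3 and are printed 5′ to 3′ on the minus strand, from RefSeq GRCm38.p6. The first is shown because it adjoins the Tbx3 start region, and the second because it is the only listed promoter in the window with peaks in most libraries. Capitals mark the single match found in each when 7 motifs were searched on both strands: AP-1 (TGACTCA or TGAGTCA), KLF (CCACACCC or CCCCACCC), octamer (ATGCAAAT), SOX (ACAATGG or CATTGTT), T-box (AGGTGTGA), TEAD (GGAATG) and GC box (GGGCGG).
Tbx3os1 promoter, chr5:119671459-119671758: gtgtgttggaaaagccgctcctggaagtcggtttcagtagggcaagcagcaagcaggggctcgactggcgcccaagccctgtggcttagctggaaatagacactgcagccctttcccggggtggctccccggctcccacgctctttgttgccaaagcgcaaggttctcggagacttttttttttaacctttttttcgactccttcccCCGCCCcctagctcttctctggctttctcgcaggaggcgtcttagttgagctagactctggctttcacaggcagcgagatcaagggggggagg
Tbx3os2 promoter, chr5:119691169-119691468: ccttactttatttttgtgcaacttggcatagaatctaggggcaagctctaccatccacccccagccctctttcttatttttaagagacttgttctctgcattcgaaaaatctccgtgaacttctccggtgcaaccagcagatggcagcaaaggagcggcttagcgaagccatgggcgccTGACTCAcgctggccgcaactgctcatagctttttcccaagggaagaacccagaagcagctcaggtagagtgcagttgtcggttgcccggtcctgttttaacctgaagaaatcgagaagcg
The capitals in the Tbx3os1 promoter are a GC box read on the other strand, letters that 35.6% of the 32817 listed mouse promoters hold. Those in the Tbx3os2 promoter are an AP-1 match at chr5:119691283-119691289, found in 5.20% of listed promoters. A match describes the letters and does not show binding.

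The lists differ in length and depth, which bears on every missing peak. The shortest had 45497 peaks (DAY3 replicate 2) and the longest 88980 (ESC replicate 2). Values given in pairs below have replicate 1 first. Read totals are not in the files. The pileup that the peak caller expected at most places, here a measure of relative depth, ranged from 2.33 in DAY6 replicate 2 to 8.32 in MEF replicate 2. At that background, the lowest fold enrichment in a list (summit over local background, as deposited) ran from 2.57 in MEF replicate 2 to 3.61 in DAY6 replicate 2. A peak under that level could not be listed where the local background was not higher, so a region open below it would be missed. Peaks had also been removed from the lists by a rule not given in the sources used here, and a missing peak may be one of those. Absence below means only that no peak is listed. The libraries are bulk samples, in which a region open in few cells and one weakly open in all cells cannot be told apart. The DAY3 pair, and likewise the DAY9 pair, differed by little more than counting noise (1.33 and 1.42 times it) and each was counted as 1 sample in the tests. The labels were compared with marker gene starts, for which either end of a gene counted where the table gives no strand. Starts of pluripotency genes with a peak in both libraries numbered 1 of 10 in MEF, 2 in DAY3, 6 in DAY6, 7 in DAY9 and 8 in ESC. Starts of mesenchymal genes numbered 7 of 10 in MEF, 5 in DAY3 and 4 in each later stage. Over all protein-coding genes the share was 49.3% in MEF, 49.3% in DAY3, 52.7% in DAY6, 55.0% in DAY9 and 54.3% in ESC, so the middle counts of both lists lie near that of any gene. Of 5 endothelial and 5 blood genes, none had such a start in MEF, and 1 of each did in DAY3, DAY9 and ESC. DAY6 had 1 endothelial and no blood gene. ESC were grown on feeder cells, whose part in the ESC peaks was not tested.

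On average, peaks in the window were fewest at DAY3 and most numerous in ESC. There were 8 and 6 peaks before induction, 4 and 4 at DAY3, 4 and 7 at DAY6, 9 and 9 at DAY9, and 20 and 12 for ESC. The ESC range lay above that of every other stage, but the ESC libraries were far apart, at 16 ± 5.7 peaks (SD, n = 2). Per 10000 peaks of the list, ESC had 2.31 and 1.35 and the other libraries 0.614 to 1.19. In the 10 lists together, 47 of the 83 peaks had a score under 100, which is a −log10 p under 10, so most of the window's peaks were weak. With every list reduced to its 45497 strongest peaks, the length of the shortest, the mean per library was 3.5 in MEF, 4 in DAY3, 2.5 in DAY6, 4 in DAY9 and 6 in ESC. The order of MEF, DAY3, DAY6 and DAY9 thus depended on list length.

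**Figure D1:**
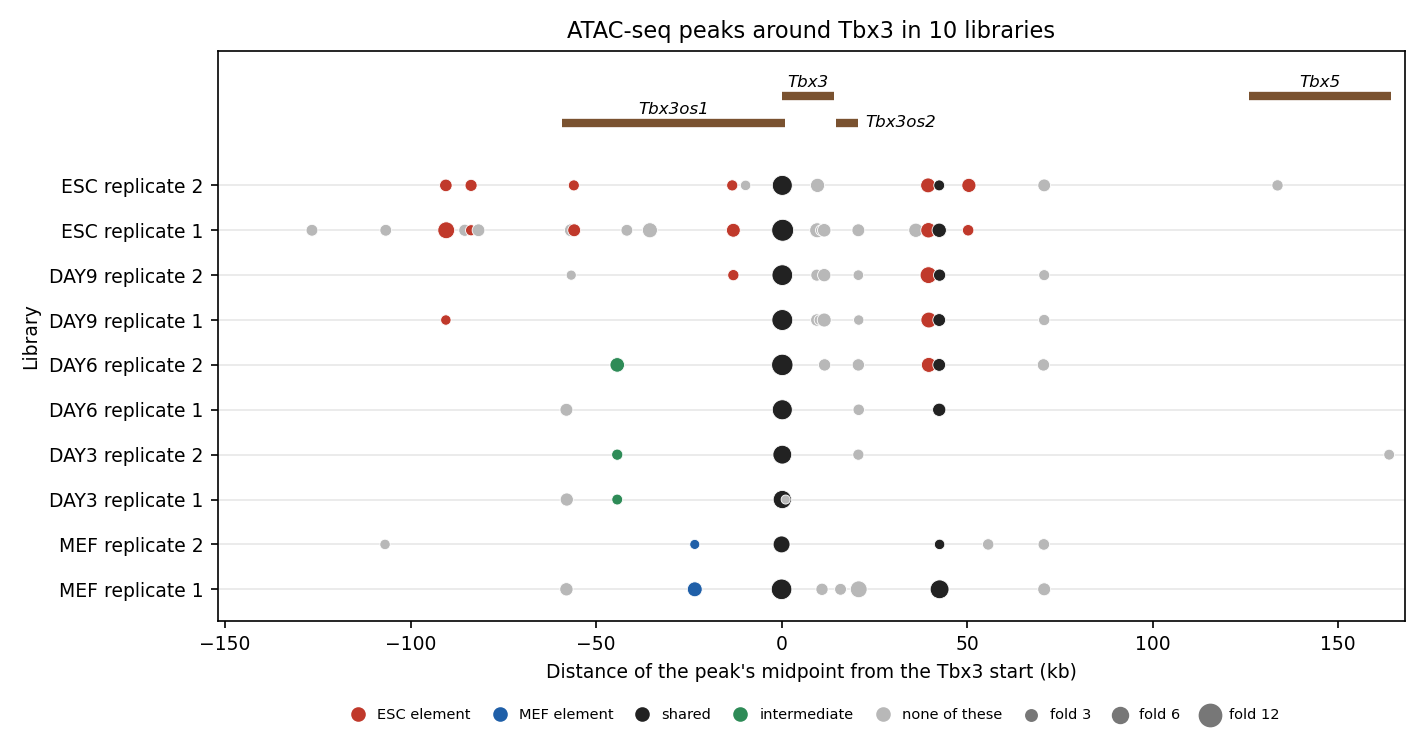
Peaks in the window around Tbx3 in each of the 10 libraries (rows), placed by the distance of their midpoint from the Tbx3 start in kb. Colour gives the class of the region, point size the deposited fold enrichment, and brown bars show Tbx3, its 2 antisense genes and the part of Tbx5 inside the window. The start of Tbx3 has a peak in every row, and red points gather in the ESC rows.

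Regions were sorted by presence alone. An ESC element had a peak in both ESC libraries and in neither MEF library, a MEF element the reverse, and a shared region had peaks in all 4. An intermediate region had none in MEF or ESC but was found in both libraries of at least 1 day in between. The window held 6 ESC elements, 1 MEF element, 2 shared regions and 1 intermediate region, and 19 regions met none of these rules. Over the whole atlas 15.9% of regions were ESC elements, 11.1% MEF elements, 9.2% shared and 9.61% intermediate, and the counts at Tbx3 are read against these shares with no test. With 2 libraries against 2 the smallest two-sided exact p-value is 0.333, and presence was not tested. With 1 library of a stage left out, the library that is left is enough, so the rule is looser and counts can hardly fall. Under this looser rule there were 9 ESC elements without ESC replicate 1. Without ESC replicate 2 there were 14 ESC elements and 2 MEF elements. Without MEF replicate 1 there were 2 MEF elements, and without MEF replicate 2 there were 3. In lists of equal length 2 regions were ESC elements and none was a MEF element.

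The ESC element at +39.5 kb, chr5:119709653-119710514, was the only one of the 6 with a DAY6 peak and the only one found in both DAY9 libraries. It lies between genes, beyond Tbx3os2. Its fold was 5.71 in DAY6 replicate 2, 6.42 and 7.17 in DAY9, and 6.04 and 5.63 in ESC. No peak was listed in MEF, DAY3 or DAY6 replicate 1, so the DAY6 libraries disagreed, and all DAY9 and ESC libraries had it. The lowest listable fold of DAY6 replicate 1 at its usual background was 3.37, under all 5 of these values. These come from other libraries, and why DAY6 replicate 1 had no peak was not tested. DAY9 and ESC heights at this element were compared in a fit limited to these stages, over 32402 regions with a peak in all their libraries. In it DAY9 is 1 averaged sample against 2 of ESC and is assumed to vary like ESC. ESC minus DAY9 was 0.66 on the log2 scale (SE 0.60, limma adjusted p = 0.497), which did not pass and does not show equal heights. It was the only one of the 6 ESC elements that kept its class both in the top 50% of each list by score and in lists of equal length.

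Another pair of ESC elements had a peak in 1 DAY9 library. The element at −90.4 kb, chr5:119579740-119580451, overlaps one end of AW549542. Its fold was 7.25 and 4.03 in ESC and 2.76 in DAY9 replicate 1, and the other 7 libraries had no peak. The element at −13.2 kb, chr5:119656820-119657764, lies in both Tbx3os1 and Gm16064. Its fold was 4.91 and 3.17 in ESC and 3.22 in DAY9 replicate 2, and no other library had a peak. Outside ESC, both elements were therefore listed in a single DAY9 library, and not the same one. Within the region at −13.2 kb the ESC replicate 2 peak was 897 bp wide, against 391 bp in ESC replicate 1 and 315 bp in DAY9 replicate 2, and grouping peaks by midpoint, chosen after seeing the data, split it.

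The remaining 3 ESC elements were listed in ESC only. At −83.7 kb (chr5:119586596-119587031, between genes) the fold was 3.17 and 3.74. At −55.9 kb (chr5:119614417-119614778, in Tbx3os1) it was 4.24 and 3.10. At +50.5 kb (chr5:119720596-119721545, between genes) it was 3.35 and 5.11. These are weak peaks. The lower value of each lies under the lowest listable folds of the DAY6 lists at the usual background (3.37 and 3.61), and the higher value lies above both. The DAY9 lists reach down to 2.64 and 2.63 and did not hold these elements. Why no DAY6 or DAY9 peak was listed was not tested.

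Of the 6 ESC elements, none had a peak at DAY3, 1 had one in at least 1 DAY6 library, 3 in at least 1 DAY9 library and 1 in both DAY9 libraries. Among the 33275 ESC elements of the atlas the same shares were 13.9% for DAY3, 35.4% for DAY6, 47.7% for at least 1 DAY9 library and 37.7% for both. With 6 elements, nothing particular to the locus can be read from these counts. Counting more loosely, 16 regions had a peak in at least 1 ESC and no MEF library. None of the 16 had a DAY3 peak, 2 had a DAY6 peak and 5 a DAY9 peak. Among the 78977 regions of the atlas chosen by that rule the shares were 9.26%, 23.5% and 32.7%, and the counts at Tbx3 lie near them. Of the 12 regions of the window seen in a single library, 6 were seen in ESC replicate 1 only and 2 in ESC replicate 2 only. Single-library regions made up 37.9% of the atlas.

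**Figure D2:**
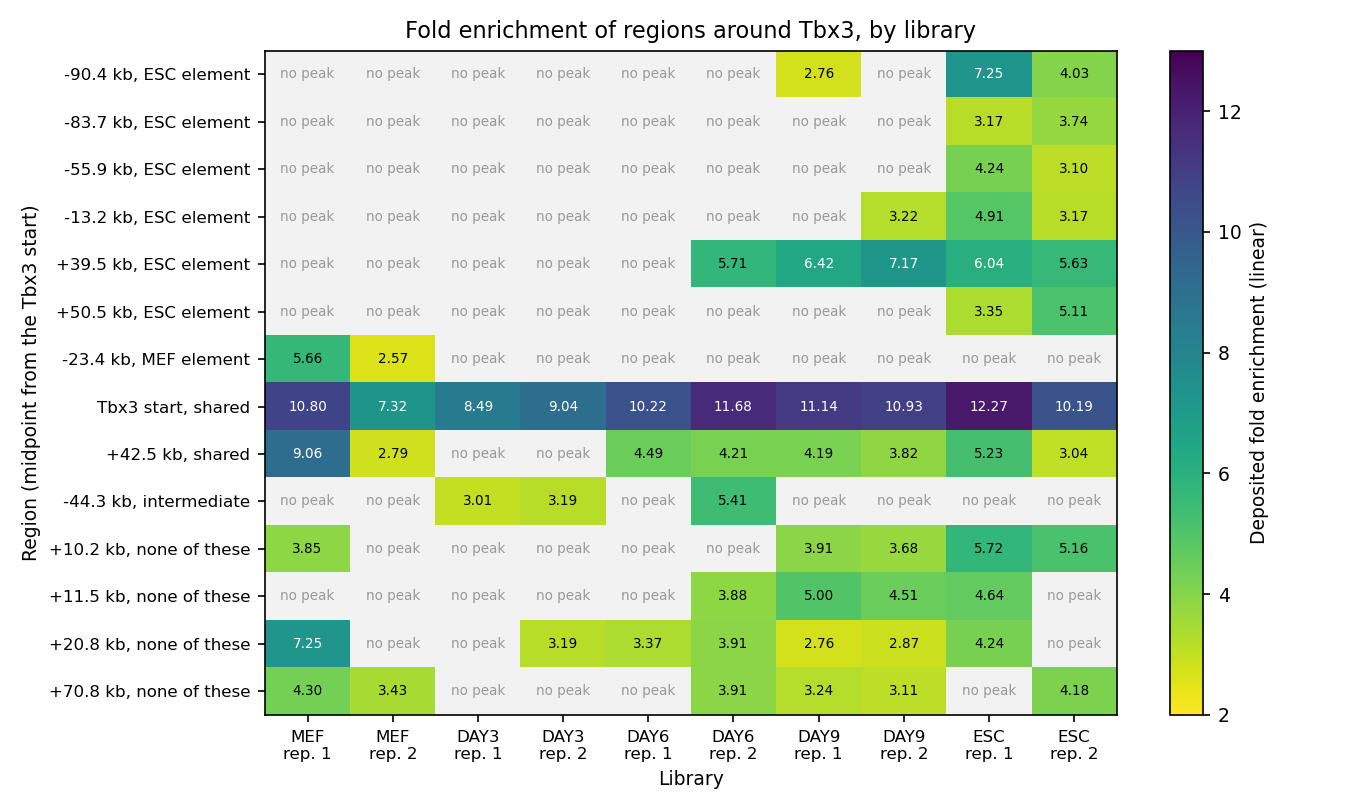
Deposited fold enrichment (linear) of each region with a class, and of the other regions with peaks in 4 or more libraries, by library. Rows give the distance of the region's middle from the Tbx3 start and its class, and "no peak" marks a library without a listed peak. ESC elements fill from the right of the plot, and both regions at +42.5 and +70.8 kb are empty at DAY3.

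The MEF element at −23.4 kb, chr5:119646883-119647315, lies in Tbx3os1 and Gm16064. Its fold was 5.66 and 2.57 in the MEF libraries, the latter at the limit of its list. No other library had a peak, so the element was listed in MEF only. Over the atlas, 79.4% of the 23262 MEF elements had no peak in either DAY3 library. Of the 10 regions with a peak in at least 1 MEF library, 3 had a DAY3 peak, 5 a DAY6 peak, 5 a DAY9 peak and 6 an ESC peak. Among the 89346 such regions of the atlas the shares were 35.6%, 37.9%, 38.2% and 37.4%. One of these, at −58.0 kb in Tbx3os1, had single-library folds of 4.53 in MEF, 4.44 in DAY3 and 4.27 in DAY6 and was not listed later.

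The shared region at +42.5 kb, chr5:119712751-119713370, lies between genes, near the ESC element at +39.5 kb. Its fold was 9.06 and 2.79 in MEF, 4.49 and 4.21 at DAY6, 4.19 and 3.82 at DAY9, and 5.23 and 3.04 for ESC. Neither DAY3 library had a peak there, although both libraries of the other 4 stages did. Of the 19217 shared regions of the atlas, 15359 were open in all libraries and 8.65% lacked a peak in both DAY3 libraries. In a fit over 18838 regions with peaks in all MEF and ESC libraries, ESC and MEF differed by 0.04 on the log2 scale (SE 0.44, limma adjusted p = 0.965). The DAY3 lists were the shortest, with lowest listable folds of 3.01 and 3.03 at the usual background. The MEF replicate 2 value (2.79) lay under both, and the ESC replicate 2 value (3.04) close to them. In lists of equal length, which can add no DAY3 peak, the region was left in 1 library each of MEF, DAY6, DAY9 and ESC. No region of the window was then shared without a DAY3 peak.

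The region at +70.8 kb, chr5:119741061-119741557, between genes, showed a similar gap and is named after its values were seen. Its fold was 4.30 and 3.43 in MEF, 3.91 in DAY6 replicate 2, 3.24 and 3.11 in DAY9, and 4.18 in ESC replicate 2. It had no peak in either DAY3 library, in DAY6 replicate 1 or in ESC replicate 1. In lists of equal length 1 MEF library alone kept it.

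The intermediate region at −44.3 kb, chr5:119626022-119626431, lies in Tbx3os1 and Gm16063. Its fold was 3.01 and 3.19 in DAY3 and 5.41 in DAY6 replicate 2. No MEF, DAY9 or ESC library had a peak there, and it kept its class in lists of equal length. That length, 45497 peaks, was the whole DAY3 replicate 2 list, and DAY3 replicate 1 had 45766 peaks. Such trimming could hardly remove a DAY3 peak, so it is little test of this class. In the top part of each list by score, where the DAY3 lists were cut too, 0 regions were intermediate. The peak in DAY3 replicate 1 was at the limit of its list, where the lowest fold was also 3.01.

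Inside Tbx3, 2 neighbouring regions in the later part of the gene were open late, and they are named after their values were seen. At +10.2 kb, chr5:119679777-119681625, the fold was 3.91 and 3.68 in DAY9 and 5.72 and 5.16 in ESC. MEF replicate 1 had a fold of 3.85 from a separate peak at the far end of the region, and no DAY3 or DAY6 library had a peak. That peak alone kept the region from being an ESC element. With peaks grouped by midpoints at most 250 bp apart, an alternative chosen after seeing the data, the DAY9 and ESC peaks formed an ESC element at +9.7 kb with a peak in both DAY9 libraries. The region was also an ESC element in lists of equal length, where 1 DAY9 library kept it. ESC minus DAY9 at the region was 1.23 on the log2 scale (SE 0.63) in the fit limited to those stages, again with DAY9 as 1 sample, and did not pass (limma adjusted p = 0.186).

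At +11.5 kb, chr5:119681801-119682320, the fold was 3.88 in DAY6 replicate 2, 5.00 and 4.51 in DAY9 and 4.64 in ESC replicate 1. MEF, DAY3, DAY6 replicate 1 and ESC replicate 2 had no peak. The missing ESC replicate 2 peak keeps it out of the ESC elements, and DAY9 is the only stage with both libraries. ESC replicate 2 could list folds down to 2.94 at its background, and why it had no peak was not tested.

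The Tbx3os2 start at +20.8 kb, chr5:119691074-119691610, was listed in 7 of 10 libraries. Its fold was 7.25 in MEF replicate 1, 3.19 in DAY3 replicate 2, 3.37 and 3.91 in DAY6, 2.76 and 2.87 in DAY9 and 4.24 in ESC replicate 1. MEF replicate 2, DAY3 replicate 1 and ESC replicate 2 had none, so MEF, DAY3 and ESC each disagreed between libraries. The AP-1 letters in capitals in the Tbx3os2 promoter lay under the peak in all 7 libraries. The GC box of the Tbx3os1 promoter lay under 1 peak, in DAY3 replicate 1, at +1.1 kb (chr5:119671519-119671751), the peak with the lowest fold in the window.

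The remaining regions of the window were seen in single libraries or in 2 libraries of different stages. ESC replicate 1 alone had regions at −126.6, −85.4, −81.7, −41.7, −35.5 and +36.2 kb, and ESC replicate 2 alone at −9.7 and +133.7 kb. MEF replicate 1 alone had +15.9 kb, MEF replicate 2 alone +55.7 kb and DAY3 replicate 2 alone +163.8 kb. The regions at −106.7 kb (MEF replicate 2 and ESC replicate 1) and −56.8 kb (DAY9 replicate 2 and ESC replicate 1) had 2 libraries each. In this group, only those at −35.5 kb (fold 5.80) and +36.2 kb (fold 5.18) exceeded a fold of 5.

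The region over the Tbx3 start, chr5:119669793-119671289, was the only one of the 29 with a peak in all libraries, and the strongest in each. Its fold was 10.8 and 7.32 before induction, 8.49 and 9.04 at DAY3, 10.2 and 11.7 at DAY6, 11.1 and 10.9 at DAY9, and 12.3 and 10.2 for ESC. Height was compared as summit pileup, the reads or fragments stacked at the highest point, recovered from the deposited fold and p-value and scaled by the median ratio over regions open in all libraries. Scaled pileup was 227 and 175 before induction, 196 and 215 at DAY3, 97.2 and 120 at DAY6, 87.9 and 85.1 at DAY9, and 144 and 130 for ESC. In scaled pileup the MEF and DAY3 values overlapped and lay above all later ones, DAY9 was lowest, and ESC lay between. The deposited fold did not follow this order. Both DAY3 folds (8.49 and 9.04) lay under all later ones. MEF replicate 2 had the lowest fold (7.32), and MEF replicate 1 (10.8) lay among the later values. A loss of height after DAY3 thus held for scaled pileup and not for fold, and fold was not tested between stages. The mean scaled pileup was 201 ± 36.3 (SD, n = 2) in MEF, 108 ± 15.9 (SD, n = 2) in DAY6 and 137 ± 10.3 (SD, n = 2) in ESC.

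None of the steps in scaled pileup passed the test over 12850 regions (limma, all stages in 1 fit). DAY3 against MEF was 0.04 on the log2 scale (SE 0.30, adjusted p = 0.984), where 0.467% of regions were called. From DAY3 to DAY6 pileup was lower by a log2 difference of −0.93 (SE 0.30, adjusted p = 0.703), and 0% of regions were called, with 608 at an unadjusted p under 0.05. DAY6 to DAY9 was −0.32 (adjusted p = 0.994), again with 0% called and 533 at an unadjusted p under 0.05. ESC against DAY9 was 0.66 (adjusted p = 0.155; 9.78% called), and ESC against MEF was −0.54 (SE 0.24, adjusted p = 0.125; 19.6% called). With all 10 libraries counted as separate samples, the differences of DAY6 from DAY3 (adjusted p = 0.0384), ESC from DAY9 (adjusted p = 0.0145) and ESC from MEF (adjusted p = 0.0424) passed in limma. With the replicate number as a block the limma values were 0.0408, 0.0186 and 0.0523. In fits limited to 2 stages, where DAY3 or DAY9 is a lone sample assumed to vary like the other stage, DAY6 minus DAY3 was −0.92 (limma adjusted p = 0.0445) and ESC minus DAY9 was 0.22 (limma adjusted p = 0.778). Scaled by background pileup instead, DAY6 minus DAY3 was −0.09, ESC minus DAY9 0.20 and ESC minus MEF −0.28, while the medians of all regions moved to 0.84, −0.43 and 0.24. The sizes of these differences thus depended on the scaling, which moved the medians of all regions in the same direction. With that scaling the SE of DAY6 minus DAY3 was 1.04. The size of ESC minus DAY9 also depended on the stages fitted. DAY6 was also the first sorted stage, and sorting and time cannot be told apart.

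**Figure D3:**
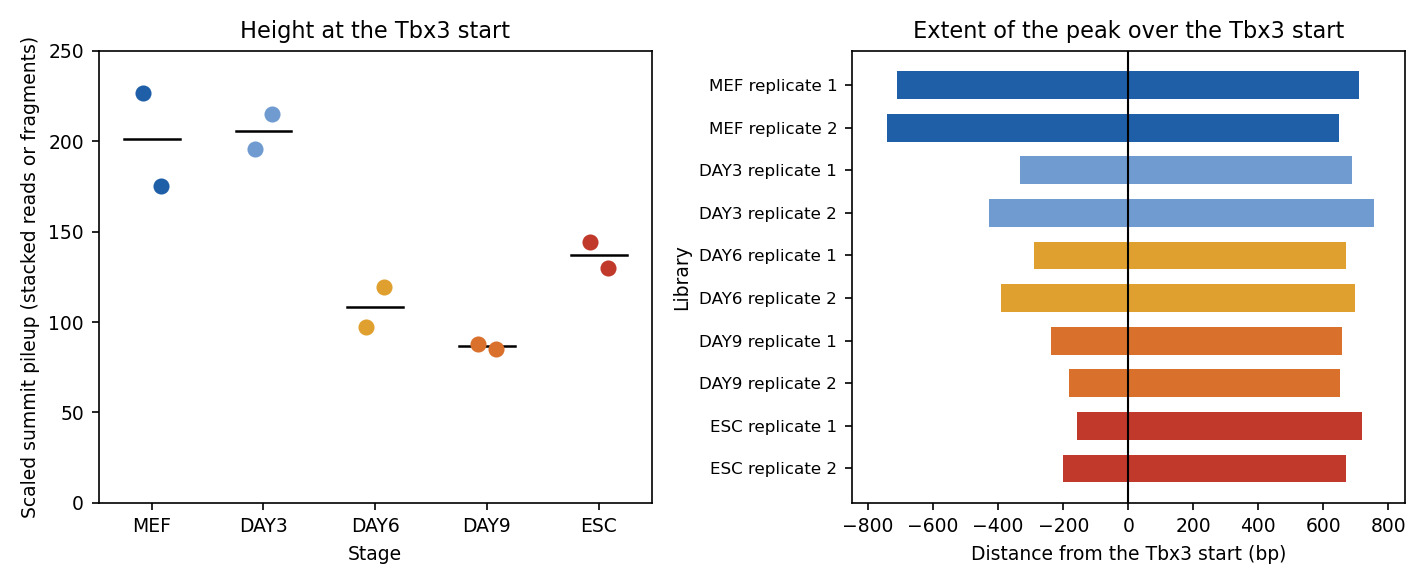
The region over the Tbx3 start in each library. Left, scaled summit pileup, with points for libraries and bars for the mean of a stage: MEF and DAY3 lie between 175 and 227, the later stages between 85.1 and 144. Right, extent of the peak in bp before (negative) and after the Tbx3 start, one bar per library: the right ends line up and the left ends draw in from MEF to ESC.

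The peak over the Tbx3 start was longest in MEF, on the side before the gene. It reached 710 and 741 bp before the start in MEF, 334 and 427 bp at DAY3, 291 and 390 bp at DAY6, 238 and 183 bp at DAY9, and 157 and 200 bp for ESC. MEF stood clear of all other libraries, and ESC overlapped DAY9. On the gene side the peak ended 649 to 755 bp after the start in all libraries, with no stage apart from the rest. These lengths were examined after the values had been seen. The edge before the gene lay 547 bp closer to the start in ESC than in MEF (SE 46.5, limma adjusted p = 0.0183), and this passed the test over 15359 regions, of which 2.62% were called for that edge. The median of all regions was −4 bp. The inner edge differed by 16 bp (SE 38.5, limma adjusted p = 0.891). Between MEF and DAY3 the outer edge moved in by 345 bp, which did not pass (limma adjusted p = 0.161; 0.378% called). It passed with all libraries as separate samples (adjusted p = 0.0170) and with the replicate block (adjusted p = 0.0265).

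The call for ESC against MEF rested on all 4 libraries: leaving out either MEF or either ESC library gave shifts of 525.5 to 568.5 bp with limma adjusted p between 0.0675 and 0.0946. Total width was 1419 and 1391 bp in MEF and 877 and 871 bp in ESC, a log2 difference of −0.68 (SE 0.12, limma adjusted p = 0.120), where 0% of regions were called and 2390 had an unadjusted p under 0.05. The extent of a peak can move with depth, whose part was not tested across libraries. MEF replicate 1 and ESC replicate 1, with nearly equal background pileup (3.42 and 3.48), had 710 and 157 bp before the start. Their summit pileups at this region were 210 and 118, so the pair was not matched for height, and the part of height was not tested. The region lies inside Tbx3os1, which overlaps the Tbx3 start on the other strand, and peaks carry no strand.

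To place the locus among others, elements were counted in the same way around 21887 protein-coding genes. Tbx3 had 6 ESC elements against a median of 4, and 30.1% of genes had more. It had 1 MEF element against a median of 3, and 70.3% of genes had more. Its excess of ESC over MEF elements, 5, was larger than in 76.9% of genes, and 17.1% had a larger one. The window was sparser than most, with 29 regions against a median of 37, and 2 shared regions against a median of 5. Windows of neighbouring genes overlap, so genes are not independent here.

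Among 16 other T-box genes, the median was 5 ESC and 3 MEF elements, and 11 had more ESC than MEF elements. Eomes, a regulator of mesoderm and endoderm, had most ESC elements (10), followed by Mga, a partner of Max (9). Tbx15, known for skeleton and skin, had most MEF elements (9), followed by T, the Brachyury gene of mesoderm (7). Tbx5, whose window overlaps that of Tbx3, had 3 ESC elements and 1 MEF element. In the 14 genes of a naive pluripotency list the median was 12 ESC and 3 MEF elements, and 12 genes had 6 or more ESC elements. Nanog and Klf5, both factors of the pluripotency network, had 18 ESC elements each. Stat3, which acts downstream of LIF, had 8 MEF elements and Dppa3, a germline and pluripotency gene whose window overlaps that of Nanog, had 6. Tbx3, with 6 ESC elements, stood below the median of that list and above that of its own family. The windows differed in density, with a median of 45.5 regions in the naive list and 37.5 in the T-box list, against 29 at Tbx3. The counts were not adjusted for this. Of all genes, 60.1% had more ESC than MEF elements. Peaks over the gene start in both libraries were found for 5 of the 16 T-box genes in MEF and 8 in ESC, and for 5 and 11 of the 14 naive genes. Over all genes the share was 49.3% in MEF and 54.3% in ESC.

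**Figure D4:**
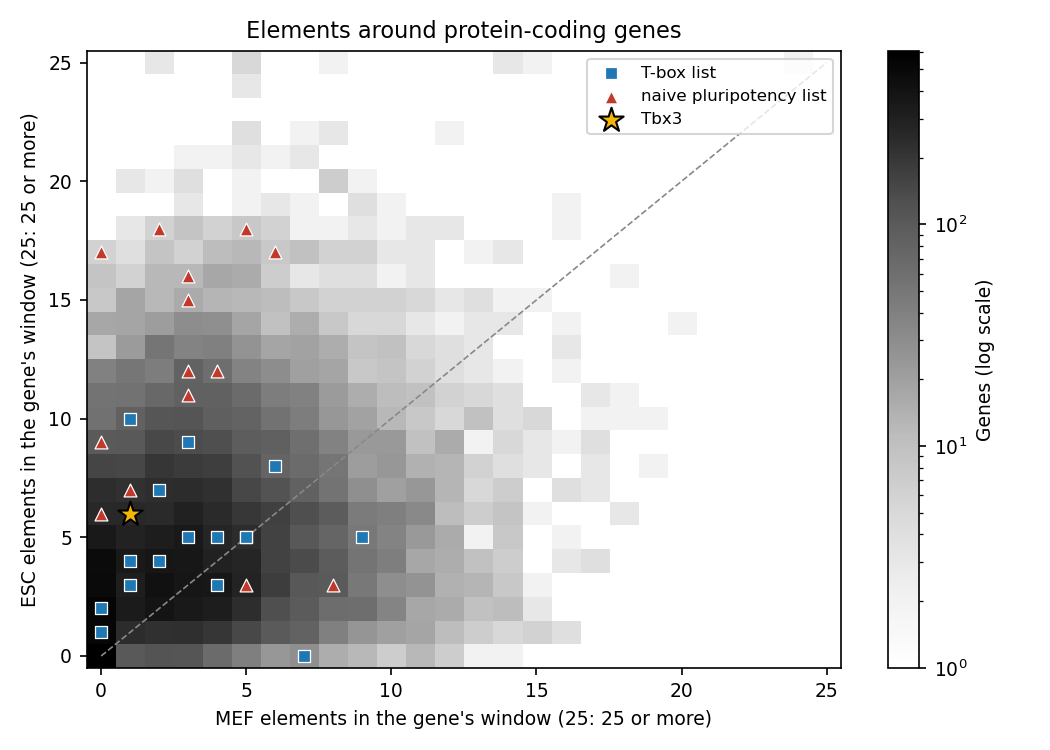
ESC elements against MEF elements in windows of 150 kb on each side of protein-coding genes. Grey shows the number of genes at each pair of counts (log scale), squares the T-box list, triangles the naive pluripotency list and the star Tbx3, which lies at 6 ESC elements and 1 MEF element. The dashed line marks equal counts.

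Gene starts whose fold followed that of Tbx3 most closely over the 8 samples were those of Gng12 (Pearson r = 0.994), Pik3r5 (0.993), Mboat2 (0.993), Vegfa (0.992) and Fbxw11 (0.990), among 13422 genes. At Gng12 the fold was 11.3 and 6.57 before induction, 7.71 and 8.63 at DAY3, 10.2 and 12.5 at DAY6, 11.8 and 11.6 at DAY9, and 14.2 and 10.8 for ESC. As at Tbx3, the low value was that of MEF replicate 2, the library with the highest background pileup. All points share libraries and depth, and no p-value is given. With Spearman correlation none of these 5 genes was among the top 5, and with all libraries as separate points 2 were.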

How the data were processed

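ATAC-seq was done on 10 libraries, 2 per stage, which were grouped by their labels. Per the submitters' processing notes the tools were Bowtie2 2.3.2, MACS2 2.1.1 and deepTools 2.3.6 and the build mm10. Their roles, duplicate handling, the transposase offset and the rule by which peaks were removed from the lists are not given in the sources used here. Each library has its own deposited peak list, made without pooling, with a score per peak, a fold enrichment (a linear ratio of summit to local background) and a −log10 p-value, and these values are the authors' own.

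From fold = (n + 1) / (expected + 1) and the Poisson p-value, the whole summit pileup n was recovered (tolerance 0.01 in −log10 p, values up to 300). The background pileup is the commonest expected pileup. Peaks of all lists were merged, and any overlap of 1 bp or more counted as presence in a library. Heights were compared with limma 3.58.1 (R 4.3.3, trend, Benjamini-Hochberg adjustment, threshold 0.05) on log2 scaled pileup at 12850 regions with a recovered pileup in all libraries, out of 15359 open in all. Libraries of DAY3 and of DAY9 were averaged because their noise ratio was under 2, which left 8 samples. Edges and widths of peaks were added after seeing the data and fitted over the 15359 regions. The scripts were tested on simulated data. Other work used Python 3.11.15.

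Regions with a class were named with all values, as were the 5 genes most like Tbx3 and, per gene list, the 2 with most ESC and the 2 with most MEF elements. The members, lists and motifs were chosen with earlier results of these data known. Alternatives were window size, list length, overlap, merging, scaling, replicate block and leaving out each library. Depth is known only as pileup, so precision cannot be given as read counts. P-values measure the spread between these libraries, which may be technical.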

Additional observations from a re-analysis of the deposited data

How the results depend on the processing

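Peaks were weak and lists unequal, so class counts in the window moved easily. The counts of ESC elements, MEF elements, shared and intermediate regions (6, 1, 2 and 1) were 2, 0, 1 and 0 in the top 50% of each list by score. In lists of equal length ESC elements, MEF elements and shared regions numbered 2, 0 and 1. With 50 kb on each side 3 ESC elements were left, and asking peaks to cover 50% of a region left 0 MEF elements. In the top 50% 0 ESC elements had a DAY6 peak and 1 had a DAY9 peak, and 0 shared regions lacked a DAY3 peak there or in lists of equal length. Peaks per library (7 in MEF, 4 in DAY3, 5.5 in DAY6, 9 in DAY9, 16 in ESC) were 2, 1, 1, 3 and 6 in the top 50% and 3.5, 4, 2.5, 4 and 6 in lists of equal length. Leaving out a library loosens the rule for its stage, as the library that is left is enough, so class counts could hardly fall. The lower ends of these ranges therefore say little. Leaving out each library in turn gave 6 to 14 ESC elements, 1 to 3 MEF elements, 2 to 3 shared and 1 to 2 intermediate regions. ESC elements with a DAY6 peak then ranged from 0 to 2, those with a DAY9 peak from 2 to 5, and shared regions without a DAY3 peak from 1 to 2. A replicate block holds 1 library per stage, so the looser rule applied throughout. The replicate 1 libraries alone gave 15 ESC elements (0 with a DAY6 peak), 4 MEF elements, 4 shared (3 without a DAY3 peak) and 2 intermediate regions. The replicate 2 libraries alone gave 3 MEF elements, 5 intermediate regions and 2 shared regions without a DAY3 peak. Replicate numbers did not pair the samples: same-numbered deviations correlated between −0.119 and 0.074 over 10 pairs of stages.

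At the Tbx3 start, the log2 change stayed at 0.04 (DAY3 − MEF), −0.93 (DAY6 − DAY3), −0.32 (DAY9 − DAY6), 0.66 (ESC − DAY9) and −0.54 (ESC − MEF) with separate libraries and with the replicate block. The limma adjusted p-values fell under the threshold where the report says so, and DAY6 − DAY3 was −0.92 and ESC − DAY9 0.22 in fits of 2 stages. Scaled by background pileup, the last 4 were −0.09, −0.41, 0.20 and −0.28. Without 1 library each the changes ranged from −0.15 to 0.23, reversing DAY3 − MEF without MEF replicate 2 (−0.15) and without DAY3 replicate 2 (−0.03), and otherwise from −1.08 to −0.78, −0.47 to −0.17, 0.59 to 0.74 and −0.73 to −0.36. Regions called numbered 60, 0, 0, 1257 and 2516 for these contrasts. They were 867, 137, 84, 4646 and 3950 with separate libraries, 843, 122, 52, 4579 and 3836 with the replicate block, and 1199, 943, 203 and 3551 for the first 4 in fits of 2 stages. The fits of 2 stages tested 19977, 28168, 38095 and 32402 regions in that order, against 12850 in the other settings. Each also held DAY3 or DAY9 as 1 sample, so their counts cannot be compared directly with the rest. Scaled by background pileup 0 were called for DAY3 − MEF, ESC − DAY9 and ESC − MEF, and 0 for the others. Leaving out libraries gave 0 to 163, 0 to 17, 0, 491 to 1607 and 1568 to 2517. The edge before the gene moved by 298.5 to 391.5 bp (DAY3 − MEF) and 525.5 to 568.5 bp (ESC − MEF) without 1 library each, and by 345 and 547 bp with separate libraries and the block, where DAY3 − MEF passed. Of the 5 genes most like Tbx3, 0 were kept by Spearman correlation and 2 with separate libraries. The cause was not tested for any of these shifts.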
